A study of Homo sapiens with 12 samples.

Results

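The genes described here encode the factors that start and extend protein chains on the ribosome, together with the proteins that bind or modify those factors. They were taken from the platform annotation as all genes whose symbol begins with EIF1, EIF2A, EIF2B, EIF2S, EIF3, EIF4, EIF5, EIF6, EEF1 or EEF2, without EIF2AK kinases, pseudogenes and non-coding RNA genes. Each gene was represented by its probe set with the highest mean log2 signal over the 12 arrays. The rule found 53 genes among the 19775 genes with a probe set of their own, and 50 of the 53 were bright enough to be tested, against 13067 of all genes. EIF3C, EIF4A2 and 1 further member did not pass the signal filter. EEF1B2, EEF1G, EIF3CL, EIF4A1 and EIF4EBP3 lay only on probe sets that carry several gene symbols and were not analysed here.

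Total RNA came from HEK cells, a human embryonic kidney line, that carried a stable tetracycline-inducible TRPM7 construct and were kept in 5 ug/mL blasticidin. TRPM7 is an ion channel fused to a kinase domain. One line carried the wild-type channel (WT) and the other a form that lacks the whole kinase domain, called mutant here and described by the submitters as nonfunctional. Each line was measured untreated and after 72 hours with 1 ug tetracycline, a dose given without a volume, with 3 arrays in each of the 4 groups. The mutant line serves as the control for the inducer, and the labels do not say whether a line is 1 clone. They also do not say that the arrays of a group come from separate cultures, so p-values measure the spread between these arrays, whose number limits the precision. The fit of the changes took all 12 arrays together, with 1 estimate of spread per probe set shared by the 4 groups. A p-value within the WT line therefore also rests on the spread of the mutant arrays. RNA of a whole culture was measured, so a change in every cell and a change in a share of the cells cannot be told apart.

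Initiation begins when eIF2, carrying the initiator tRNA and GTP, joins eIF1, eIF1A, eIF3 and eIF5 on the small ribosomal subunit. The cap-binding complex eIF4F (eIF4E, the scaffold eIF4G and the helicase eIF4A) brings this assembly to the mRNA, and eIF2B recharges eIF2 with GTP after each round. Cells throttle these steps by phosphorylating eIF2, which blocks eIF2B, or by letting 4E-binding proteins hold eIF4E when mTOR is inactive. Elongation uses eEF1A to deliver aminoacyl-tRNA and eEF2 to move the ribosome, and the kinase EEF2K inactivates eEF2.

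Of 9 HEK markers, 8 were on the array and all 8 were bright enough to be tested. Of the markers of other cells, none of the 4 blood and immune genes and neither of the hepatocyte genes was, and 1 of 3 endothelial genes (PECAM1) and 1 of 3 fibroblast genes (COL1A1) were. TRPM7 itself had a log2 signal of 8.47 ± 0.31 in WT untreated, 7.62 ± 0.67 in WT with tetracycline, 8.39 ± 0.12 in mutant untreated and 8.19 ± 0.30 in mutant with tetracycline (SD, n = 3 each). Where its probes lie relative to the construct is not known here, so this signal does not check the labels. The beta-actin controls at the 3′ and 5′ ends, whose ratio is a sign of RNA integrity, differed on the log2 scale by 1.05 ± 0.27 (SD, n = 6) on WT arrays. On mutant arrays they differed by 0.26 ± 0.03 (SD, n = 6), and a 2-sided exact permutation test between the lines gave p = 0.00216, its lower limit here. The same measure on the GAPDH controls was 0.083 ± 0.063 and 0.075 ± 0.037 (p = 0.779, the same exact permutation test), and the 18S ribosomal RNA control had log2 signals of 8.91 ± 0.50 on WT and 7.67 ± 0.50 on mutant arrays (p = 0.00216, the same exact permutation test). The poly-A spike controls were lowest on the replicate 3 array in all 4 groups. The part of these differences in the results was not tested.

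Sequence features of the members were read from RefSeq promoter windows (GRCh38.p14), and 38 of the 50 tested members were searched. The rest, among them EEF1A2 and EIF4EBP1, were not searched for any motif. Windows on some chromosomes were left out for the members, while the shares of all genes used every window. Those shares were also not limited to genes bright enough to be tested here, as the members were. Many genes of the translation machinery begin their mRNA with a C followed by a run of pyrimidines, a 5′ terminal oligopyrimidine start through which mTOR and LARP1 control their translation. A C followed by at least 4 pyrimidines at the first transcribed base was found in 9 of the 38 members, or 23.7%, against 5.14% of the 27058 genes in the table. The 25 bases around these starts are shown because this start is the known mark of mTOR-controlled translation genes, with the pyrimidine run in capitals from the first transcribed base.
EEF1A1 (chr6:73521013-73521037, minus strand): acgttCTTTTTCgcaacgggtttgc
EEF2 (chr19:3985444-3985468, minus strand): gcgttCTCTTCCgccgtcgtcgccg
EIF2A (chr3:150546782-150546806, plus strand): ggtttCTCTTTCCgggacaacatgg
EIF2S3 (chrX:24054951-24054975, plus strand): ccttcCTCTTTTggcaacatggcgg
EIF3D (chr22:36529147-36529171, minus strand): gtttcCTCTTTTCCTggtttctcaa
EIF3F (chr11:7987332-7987356, plus strand): gcctcCTTCTTTCTCgacaagatgg
EIF3K (chr19:38619183-38619207, plus strand): accacCTCTTCCTgttcccgtcctt
EIF3M (chr11:32583826-32583850, plus strand): gttccCTTTTCCggtcggcgtggtc
EIF4B (chr12:53006451-53006475, plus strand): cgggtCTTTTgcgttctctttccct

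The run was 10 pyrimidines long in EIF3D and EIF3F, the longest of the set, and 5 in EIF4B, the shortest. The 9 genes encode both elongation factors of the core cycle (EEF1A1, EEF2), 4 subunits of eIF3, the gamma subunit of eIF2 (EIF2S3), the helicase cofactor EIF4B and EIF2A.

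The second motif searched was the E-box CACGTG, a palindrome bound by MYC and by other basic helix-loop-helix factors, in the 250 bases before the start. It was present in 11 of the 38 members, or 28.9%, against 7.69% of all genes: EEF2K, EIF1B, EIF2B3, EIF3F, EIF3K, EIF4A3, EIF4B, EIF4E, EIF4G1, EIF4H and EIF5A2. The CHOP-ATF4 composite element TGATGNAA, searched on both strands, was present only in EIF4E3 among the 38 members (2.63%, against 3.9% of all genes). The upstream sequences of EIF1B and EIF5A2, which rose in the WT line, and of EIF4E, whose brightest probe set did not pass the test, are shown with the E-boxes in capitals.
EIF1B (chr3:40309457-40309706, plus strand): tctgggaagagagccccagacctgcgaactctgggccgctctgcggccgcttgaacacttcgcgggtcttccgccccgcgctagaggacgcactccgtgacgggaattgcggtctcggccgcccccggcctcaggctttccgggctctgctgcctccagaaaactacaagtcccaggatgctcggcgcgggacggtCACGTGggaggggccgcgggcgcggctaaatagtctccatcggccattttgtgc
EIF5A2 (chr3:170908638-170908887, minus strand): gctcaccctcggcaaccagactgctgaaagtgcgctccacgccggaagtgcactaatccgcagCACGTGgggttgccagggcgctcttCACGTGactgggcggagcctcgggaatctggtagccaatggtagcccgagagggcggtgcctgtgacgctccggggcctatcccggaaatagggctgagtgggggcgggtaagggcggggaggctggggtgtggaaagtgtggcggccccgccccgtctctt
EIF4E (chr4:98929134-98929383, minus strand): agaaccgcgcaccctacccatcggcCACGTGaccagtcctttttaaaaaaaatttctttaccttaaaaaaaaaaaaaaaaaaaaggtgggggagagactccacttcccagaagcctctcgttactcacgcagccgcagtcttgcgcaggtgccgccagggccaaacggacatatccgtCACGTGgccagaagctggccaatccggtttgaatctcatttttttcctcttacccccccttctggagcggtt

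The single E-box of EIF1B begins 54 bases before the start. Those of EIF5A2 begin 187 and 162 bases before it, and those of EIF4E 225 and 72. These matches are descriptions of letters in a window and do not show binding.

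The comparison of WT cells with and without tetracycline asked what the inducer together with the working channel changed. In these cells the elongation factor isoform EEF1A2, the translational repressor EIF4EBP1, and EIF1B and EIF1, which guard start codon choice, rose by 1.61-fold to 2.45-fold. The largest falls were those of the methyltransferases EEF2KMT and EEF1AKMT2, of 2 subunits of eIF2B and of EIF3J. The cap-binding protein EIF4E, the scaffold EIF4G1 and the general elongation factors EEF1A1 and EEF2 did not pass the test. In limma's fit 8 members rose and 9 fell at an adjusted p under 0.05, which is 34.0% of the 50 tested, while of all tested genes 9.41% were called higher and 8.57% lower. The median change was -0.10 on the log2 scale over the 50 members and 0.03 over all tested genes. Groups did not overlap for 10 higher and 9 lower members, where 15.3% and 12.3% of all tested genes were separated in these directions.

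**Figure D1:**
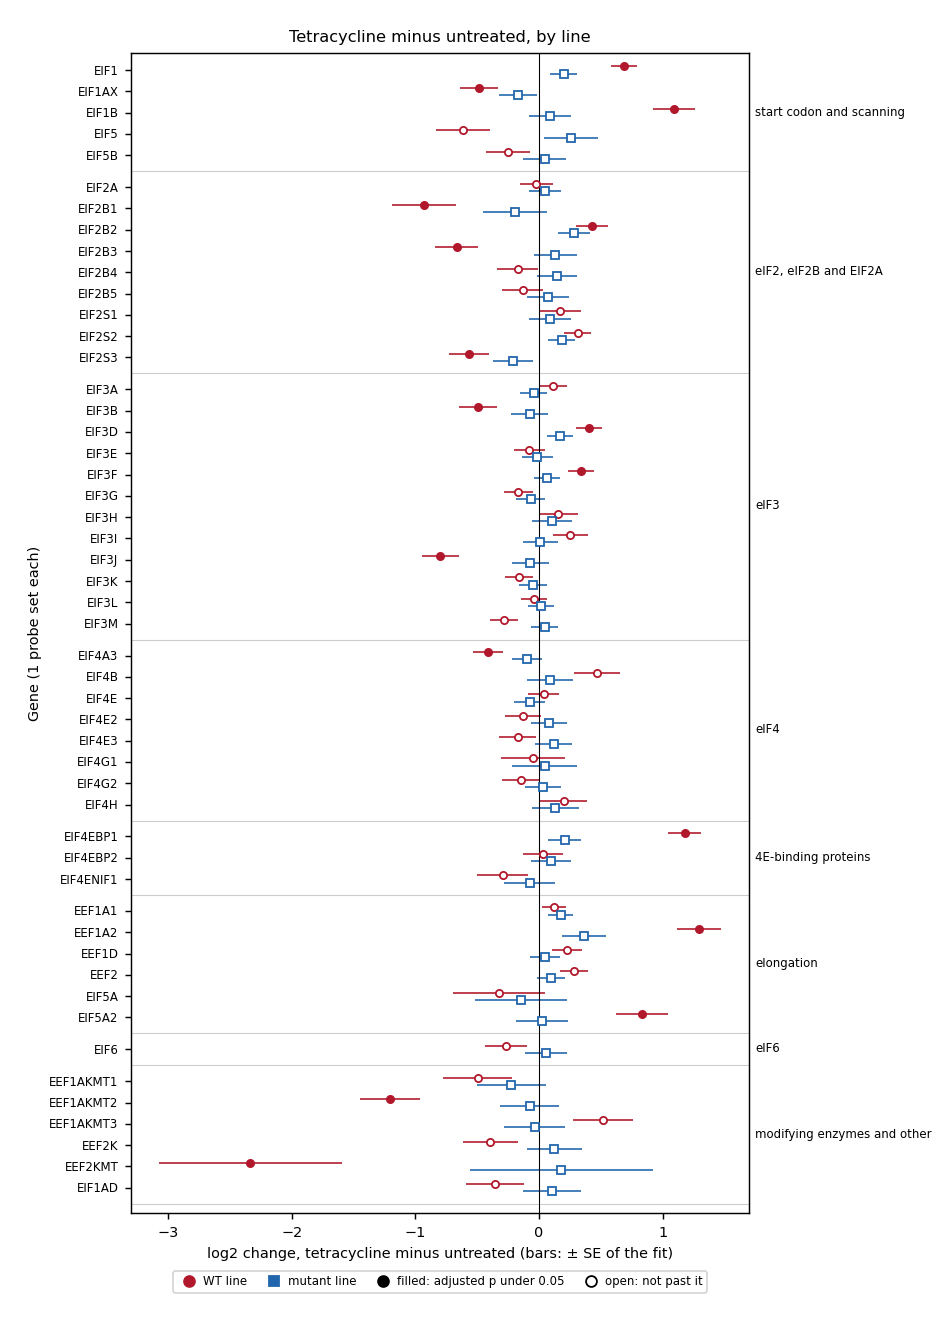
The horizontal axis is the log2 change of the MAS5 signal, tetracycline minus untreated, with bars of ± 1 SE of limma's fit, and each line of the vertical axis is one of the 50 tested genes, grouped by role. Circles are the WT line and squares the mutant line, and filled marks passed an adjusted p under 0.05: 17 of the 50 circles are filled and 0 of the 50 squares.

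Among the start codon and scanning factors 2 of the 5 tested members rose and 1 fell. EIF1, which keeps the scanning ribosome open until a start codon is met, had log2 signals of 14.85, 14.96 and 14.75 on the 3 WT untreated arrays and 15.35, 15.55 and 15.72 on the 3 with tetracycline. Its mutant arrays gave 14.67, 14.80 and 14.68 untreated and 14.82, 15.06 and 14.85 with tetracycline. In both lines the treated arrays all lay above the untreated ones. The WT change was 0.69 ± 0.11 (SE), or 1.61-fold (adjusted p = 0.000893), and the mutant change 0.20 ± 0.11 did not pass the test (unadjusted p = 0.0823).

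EIF1B, a close paralog of EIF1, gave 12.39, 12.67 and 12.27 in WT untreated and 13.15, 13.56 and 13.89 in WT with tetracycline. The mutant arrays ran from 12.20 to 12.47 untreated and from 12.26 to 12.56 treated, so those groups overlapped while the WT groups did not. The WT change was 1.09 ± 0.17, or 2.13-fold (adjusted p = 0.000874). With the mean of its 2 probe sets, of which only 1 was bright enough to be tested, it was 0.36 (adjusted p = 0.319). EIF1AX, the X-linked gene of the eIF1A factor that occupies the ribosomal A site during scanning, went the other way. It gave 13.28, 13.06 and 13.14 untreated and 12.95, 12.55 and 12.51 treated, a change of -0.49 ± 0.15 (adjusted p = 0.0387). EIF5, the GTPase activator of eIF2, changed by -0.61 ± 0.22 and did not pass (adjusted p = 0.0672). Without WT tetracycline replicate 1, on which EIF5 was highest of the treated WT arrays at 13.39, that change was -0.96 (adjusted p = 0.000109).

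Of the 9 members in the group of eIF2, its exchange factor eIF2B and EIF2A, a separate initiation factor, 1 rose and 3 fell. Within eIF2B, a decamer whose subunits are made from 5 genes, the subunits did not move one way. EIF2B3, the gamma subunit of the catalytic part, gave 11.49, 11.34 and 11.41 in WT untreated and 11.13, 10.82 and 10.31 in WT with tetracycline, a change of -0.66 ± 0.17 (adjusted p = 0.0183). EIF2B1, the alpha subunit, gave 12.06, 11.45 and 11.88 untreated and 11.66, 10.60 and 10.32 treated. These groups overlapped, and the change was -0.93 ± 0.26 (adjusted p = 0.0238). EIF2B2, the beta subunit, gave 12.05, 12.09 and 11.76 untreated and 12.52, 12.43 and 12.24 treated, a rise of 0.43 ± 0.13 (adjusted p = 0.0356). EIF2B4 at -0.17 and EIF2B5 at -0.13 did not pass (adjusted p = 0.506 and 0.629).

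Of the eIF2 trimer itself, the gamma subunit gene EIF2S3, whose product binds GTP and tRNA, fell. It gave 13.12, 12.97 and 13.19 untreated against 12.58, 12.48 and 12.53 treated, a change of -0.56 ± 0.16 (adjusted p = 0.026). Its second probe set gave -0.21 (adjusted p = 0.233) and the mean of all its probe sets -0.41 (0.079). The alpha subunit gene EIF2S1, whose product is the phosphorylated one, changed by 0.17 (adjusted p = 0.526), and the beta subunit gene EIF2S2 by 0.31 (adjusted p = 0.0631). The EIF2S2 groups did not overlap, and the change passed under the stricter filter (adjusted p = 0.0467) and without WT untreated replicate 1 (0.0382). Its second probe set, given with the other probe sets, went the other way.

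The eIF3 complex, a scaffold of many subunits on the small ribosomal subunit, had 2 subunits that rose and 2 that fell among 12 tested, with a median change of -0.06. EIF3J, a loosely bound subunit that helps in recycling, gave 12.38, 11.87 and 12.22 in WT untreated and 11.60, 11.21 and 11.26 in WT with tetracycline. That is a fall by 0.80 ± 0.15 on the log2 scale (adjusted p = 0.00316), with a mutant change of -0.07. The other subunit that fell was EIF3B, of the core, by 0.49 ± 0.15 (adjusted p = 0.0395), with overlapping groups: the treated WT array of replicate 1, at 12.69, lay above the lowest untreated one, at 12.65. With the mean of all its probe sets EIF3B changed by -0.21 (adjusted p = 0.584). EIF3D, which can itself bind a cap, rose by 0.40 ± 0.11 (adjusted p = 0.019) from 13.65, 13.89 and 13.74 to 14.02, 14.18 and 14.29. EIF3F rose by 0.34 ± 0.11 (adjusted p = 0.0372) from 14.10, 14.26 and 13.89 to 14.42, 14.33 and 14.53. Both carry the longest pyrimidine starts shown above. The remaining 8 subunits ran from -0.28 (EIF3M) to 0.25 (EIF3I).

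The 8 tested eIF4 factors had a median size of change of 0.16, against 0.30 over the 50 members. EIF4A3, an eIF4A relative that belongs to the exon junction complex, was the 1 gene of this role that passed, and it fell by 0.41 ± 0.12 (adjusted p = 0.0299). EIF4E gave 11.47, 11.63 and 11.54 untreated and 11.39, 11.60 and 11.76 treated, a change of 0.04 ± 0.12 (adjusted p = 0.868). EIF4G1 changed by -0.05 ± 0.26 (adjusted p = 0.92), with a wide spread of 10.88 to 12.01 over the 6 WT arrays. EIF4B, which helps the helicase, changed by 0.47 ± 0.19 (adjusted p = 0.102).

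Of the repressors, EIF4EBP1, the 4E-binding protein that blocks cap-dependent initiation when mTOR no longer phosphorylates it, rose. It gave 11.60, 11.84 and 11.71 in WT untreated, and 12.70, 12.84 and 13.14 in WT with tetracycline. The mutant arrays gave 11.76, 11.94 and 11.83 untreated, and 11.93, 12.19 and 12.04 treated. All 3 treated WT arrays lay above the other 9 arrays. The WT change was 1.18 ± 0.13, or 2.26-fold (adjusted p = 0.00018), and it passed in all 23 alternatives that could be run for this gene, with values from 1.05 to 1.27. EIF4EBP2, its paralog, changed by 0.03 ± 0.16 (adjusted p = 0.913), with overlapping groups of 10.27 to 10.64 untreated and 10.18 to 10.64 treated. The other tested probe sets of EIF4EBP2 had lower WT means with tetracycline: 10.31 against 10.61 untreated, 8.22 against 9.11, and 6.94 against 7.60. EIF4ENIF1, which carries EIF4E into the nucleus, changed by -0.29 ± 0.21 (adjusted p = 0.357).

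The kinase EEF2K gave 9.11, 9.80 and 9.43 in WT untreated and 9.51, 8.97 and 8.68 in WT with tetracycline, a change of -0.39 ± 0.22 that did not pass (adjusted p = 0.246). Its other tested probe set gave 8.23, 9.68 and 8.95 untreated and 7.92, 7.11 and 7.70 treated, a change of -1.38 ± 0.33 (adjusted p = 0.0114). The 2 probe sets thus had the same sign and differed in the call.

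Among the 6 elongation factors 2 rose and none fell. EEF1A2, the eEF1A isoform typical of neurons and muscle, gave 11.62, 12.29 and 12.46 in WT untreated and 13.17, 13.43 and 13.65 in WT with tetracycline. The mutant arrays, at 13.67, 13.50 and 13.49 untreated and 13.87, 14 and 13.88 treated, all lay above the WT untreated ones. The WT change was 1.29 ± 0.18, or 2.45-fold (adjusted p = 0.000458), and it passed in all 23 alternatives that could be run. EIF5A2, the second gene of the hypusine-carrying factor that relieves stalled ribosomes, gave 8.59, 7.95 and 8.23 untreated and 9.03, 9.24 and 8.998 treated, a change of 0.83 ± 0.21 (adjusted p = 0.0142). Its second probe set rose by 1.43 and its dimmest gave -0.68 (adjusted p = 0.207), and with the mean of all 3 the change was 0.53 and did not pass (0.103). The general forms stayed short of the threshold: EEF1A1 changed by 0.12 ± 0.10 (adjusted p = 0.433), EIF5A by -0.32 ± 0.37 (0.589) and EEF2 by 0.28 ± 0.11 (0.0924). EEF2 passed without WT tetracycline replicate 1, at 0.35 (adjusted p = 0.0415). EIF6, which keeps the large ribosomal subunit from joining too early, changed by -0.27 ± 0.17 (adjusted p = 0.307).

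Of the enzymes that modify elongation factors, the methyltransferase of EEF2 lysine, EEF2KMT, fell by 2.34 ± 0.74 (adjusted p = 0.0424). Its probe set was dim and scattered, with 8.17, 9.07 and 7.38 in WT untreated and 7.22, 5.53 and 4.86 in WT with tetracycline. Its mutant arrays also ranged from 5.69 to 8.80 untreated. EEF1AKMT2, a methyltransferase of eEF1A, gave 9.54, 9.39 and 9.55 in WT untreated and 8.87, 7.76 and 8.24 in WT with tetracycline, a fall by 1.20 ± 0.24 (adjusted p = 0.00436). Its other tested probe set gave 8.59, 7.98 and 8.52 in WT untreated and 6.71, 6.56 and 6.79 in WT with tetracycline. On that probe set the treated mutant arrays also lay below the untreated ones, with means of 7.63 against 7.97. On the brightest probe set the mutant means were 8.94 treated and 9.02 untreated. The mean of all 3 probe sets of EEF1AKMT2 changed by -0.47 in the WT line (adjusted p = 0.425). Only 2 of the 3 were bright enough to be tested. EEF1AKMT1 at -0.50 and EEF1AKMT3 at 0.52 did not pass (adjusted p = 0.245 and 0.164).

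**Figure D2:**
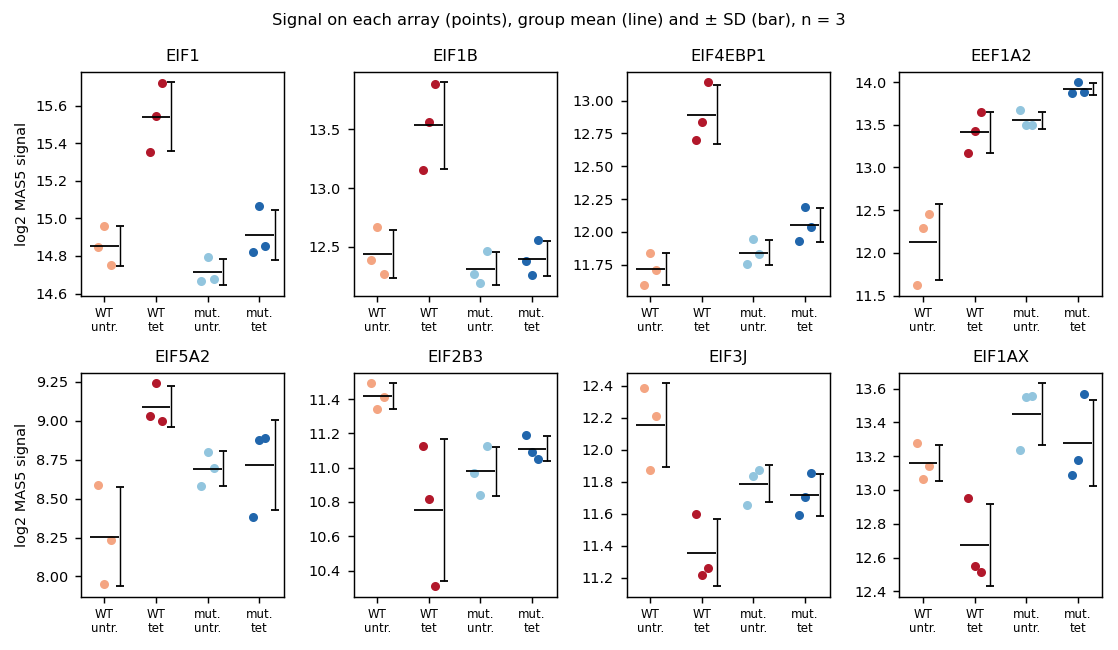
Each panel gives 1 gene, with the log2 MAS5 signal on the vertical axis, the 4 groups on the horizontal axis, 1 point per array, a line for the group mean and a bar of ± SD (n = 3); the vertical scales differ between panels and do not start at 0. For EIF1, EIF1B and EIF4EBP1 the 3 treated WT arrays lie above all 9 others, while for EEF1A2 the 3 untreated WT arrays lie below all 9 others.

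The actin ratio did not separate treatments in the WT line, with 0.63 to 1.29 untreated and 0.90 to 1.36 treated (2-sided exact permutation p = 0.6, where 0.1 is the smallest possible). Of the 17 called members, EIF4EBP1, EEF1A2, EIF1B, EIF1, EIF3J and EEF1AKMT2, or 6 of 17, stayed called without each of the 12 arrays in turn. The call of EIF5A2 ended without WT tetracycline replicate 2 (adjusted p = 0.06). EIF2B3 lost it without WT untreated replicate 1 (0.0521) or WT tetracycline replicate 3 (0.0715). EIF2S3 (0.0623 to 0.0856), EIF3D (0.0557 to 0.0764), EIF4A3 (0.0585 to 0.124) and EIF2B1 (0.0728 to 0.112) each lost it without any of 4 arrays, WT untreated replicates 1 and 3 and WT tetracycline replicates 2 and 3. The same 4 arrays ended the calls of EIF1AX, EIF3B and EIF3F, as did some mutant arrays (adjusted p = 0.0502 to 0.153 over the 3 genes). EIF2B2 lost its call without any of 7 arrays (0.0502 to 0.135) and EEF2KMT without any of 6 (0.057 to 0.168). Without a variance trend 9 of the 17 lost the call (EEF2KMT, EIF1AX, EIF2B1, EIF2B2, EIF2S3, EIF3B, EIF3D, EIF3F and EIF4A3, adjusted p = 0.0646 to 0.119), and without a signal filter 6 of these did (0.0567 to 0.0999). EIF1AX lost it with median centring (0.0568) and on its second probe set (0.209), EIF3F with quantile normalization (0.0576) and EEF2KMT with array weights (0.0721). With only the 6 WT arrays in the fit, 4 members were called higher and 3 lower, against 4.06% of all tested genes. In that fit 10 of the 17 lost the call (adjusted p = 0.0602 to 0.154). They were EEF2KMT, EIF1AX, EIF2B1, EIF2B2, EIF2B3, EIF3B, EIF3D, EIF3F, EIF4A3 and EIF5A2. Without the replicate 3 arrays of all groups, EIF4EBP1, EEF1A2 and EIF1B were called higher and 0 members lower, against 1.61% of all tested genes.

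By start sequence, 2 of the 9 genes with a pyrimidine start rose and 1 fell, with a median change of 0.12. Of the 29 searched members with another start 4 rose and 7 fell, with a median of -0.17. Of the 11 genes with an upstream CACGTG 3 rose (EIF1B, EIF3F and EIF5A2) and 2 fell (EIF2B3 and EIF4A3), with a median of 0.04. Of the 27 without it 3 rose and 6 fell, with a median of -0.17. Neither feature held genes of one direction only, and no test was made between these sets.

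The other genes of the pathway were described by lists of kinases, signalling proteins and partners, whose counts stand beside the 9.41% of all tested genes called higher and 8.57% called lower. Of the 12 genes of the eIF2 kinase and phosphatase list 4 rose and 1 fell (41.7%), with a median of -0.12. PPP1R15A, the stress-induced subunit that brings the phosphatase to eIF2, rose by 1.79 ± 0.23 (adjusted p = 0.00028). ATF4, whose mRNA is translated when eIF2 is phosphorylated, rose by 0.82 ± 0.12 (adjusted p = 0.000657), EIF2AK3, the kinase PERK, by 0.74 ± 0.14 (0.00252) and PPP1R15B by 0.70 ± 0.16 (0.00735). EIF2AK1, the heme-regulated kinase, fell by 0.44 ± 0.14 (0.0449). The risen genes thus included the kinase EIF2AK3 and the phosphatase subunits PPP1R15A and PPP1R15B, while the kinase EIF2AK1 fell. The other 7 genes of the list, among them further kinases and phosphatase subunits, were not called.

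In the mTOR and MNK list 2 of 16 tested genes rose and 1 fell, a share of 18.8%, near that of all tested genes. The risen ones were the mTOR inhibitors SESN2 (0.91 ± 0.18, adjusted p = 0.00364) and DDIT4 (0.75 ± 0.17, 0.0096), and the fallen one was MLST8, a subunit of the mTOR complexes (-0.89 ± 0.21, 0.00968). None of 6 tested genes of poly(A) binding passed, with PAIP1 at 0.40 (0.0792). Of 10 genes of recycling, reinitiation and termination 1 rose, the release factor GSPT1 (0.49 ± 0.12, 0.0103). Of 7 tested enzymes that make hypusine on eIF5A or diphthamide on eEF2, DPH3 rose by 0.66 ± 0.18 (0.0211), and DPH2 (-0.70 ± 0.20, 0.0279) and DPH6 (-1.11 ± 0.22, 0.00379) fell. The hypusine enzymes DHPS at -0.10 and DOHH at -0.03 did not pass.

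Most members are covered by several probe sets, which read different stretches of a transcript or different transcripts. Of the 50 tested members 32 had more than 1 tested probe set, with 72 further probe sets in all. In the WT line 6 of the 72 were called higher and 17 lower, where 7.83% and 9.11% of all tested probe sets were. Called probe sets had the sign of a called brightest one in 12 cases and the opposite sign in 1. In 10 genes a dimmer probe set was called lower while the brightest was not called, and in 0 genes was it called higher.

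EIF1 had 6 of 7 tested probe sets called higher, at 0.69 to 1.56, and 4 of these are of the x_at type, which can also bind similar transcripts. Of the brightest probe sets of the 50 members 5 are of that type, those of EEF1A1, EEF1D, EEF2KMT, EIF3B and EIF5B. EIF1AX fell on a further 2 probe sets, by 1.40 ± 0.19 and 0.81 ± 0.18, more than on its brightest. On the first of these the treated mutant arrays also lay below the untreated ones, with means of 11.75 against 12.20. On the second the mutant means were 11.88 treated and 12.10 untreated. EIF3F was the gene with opposite calls: its dimmer probe set gave 8.04, 7.28 and 7.47 in WT untreated and 6.31, 5.996 and 2.51 in WT with tetracycline, a change of -2.65 ± 0.70 (adjusted p = 0.0191), against 0.34 on the brightest. The mutant arrays of this dimmer probe set were also lower with tetracycline, with 7.90, 7.58 and 7.68 untreated and 7.10, 6.71 and 6.99 treated. EIF3H had the widest gap, with 0.16 ± 0.16 on the brightest and -4.18 ± 0.75 (adjusted p = 0.00217) on a dim one. That probe set gave 7.97, 7.72 and 7.01 in WT untreated, 5.48, 3.35 and 1.32 in WT with tetracycline, 8.04 to 8.57 in mutant untreated and 5.98 to 7.26 in mutant with tetracycline. EEF1A1 gave 10.45, 11.28 and 10.69 and then 9.58, 9.55 and 9.59 on its called probe set, a change of -1.24 ± 0.19 (adjusted p = 0.000986). There too the treated mutant arrays lay below the untreated ones, with 11.17, 10.89 and 10.71 untreated and 10.47, 10.19 and 10.27 treated. EIF4E fell on a single probe set of 4, by 0.78 ± 0.17 (adjusted p = 0.00708), with 10.44 to 10.57 untreated and 9.68 to 9.76 treated. EIF2S2 changed by -1.16 ± 0.35 (adjusted p = 0.0338) on its second probe set. For EIF3F, EIF3H, EEF1A1, EIF4E and EIF2S2 the sign thus differed between the brightest and the called dimmer probe set. The dimmest tested probe set of EIF3A also went down in the WT line, from a mean of 10.22 untreated to 9.27 treated. There too the treated mutant arrays lay below the untreated ones, with means of 9.81 against 10.04. The brightest probe set of EIF3A went from 13.98 to 14.10 in the WT line. Where each probe set lies in its transcript is not used here.

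**Figure D3:**
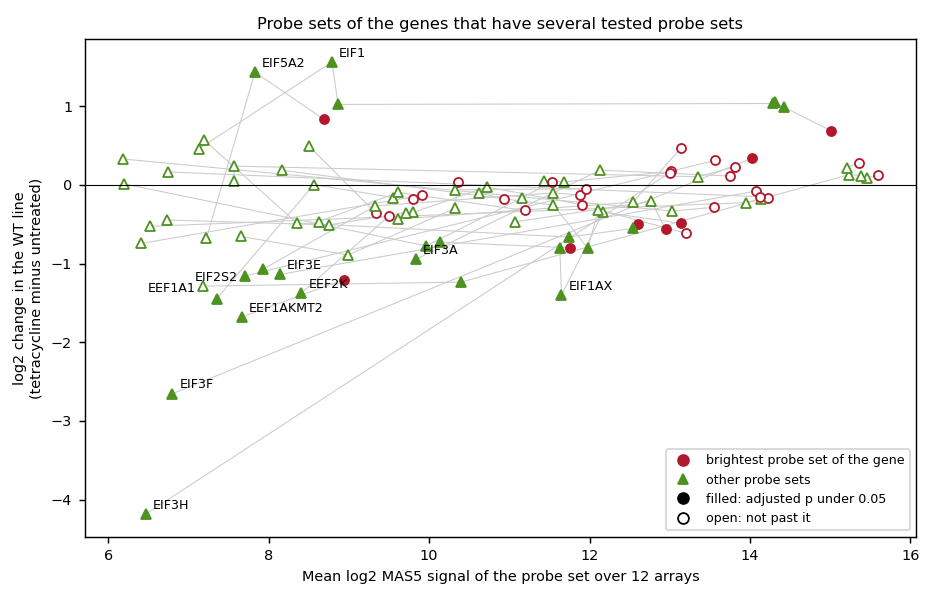
The horizontal axis is a probe set's mean log2 MAS5 signal over 12 arrays and the vertical axis its log2 change in the WT line, tetracycline minus untreated; circles are the brightest probe set of a gene, triangles the others, thin lines join the probe sets of a gene, and filled marks passed an adjusted p under 0.05. Called circles and triangles lie on both sides of 0, while the largest falls, of EIF3H at -4.18 and EIF3F at -2.65, are at signals under 7.

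The comparison of mutant cells with and without tetracycline measured the inducer with the kinase-deleted channel. No member was called by limma, as was no gene at all (0.00%), and 1 of 50 members, EIF2B2 at 0.28 ± 0.13, had an unadjusted p under 0.05 (1.77% of all tested genes did). With array weights 8 members, all higher, had an unadjusted p under 0.05, against 7.93% of all tested genes, and 0 were called, against 0.0230% of all tested genes. The 50 changes ran from -0.22 to 0.36, with a median of 0.05 and 34, or 68.0%, above 0, against 54.0% of all tested genes. Their median size was 0.09, against 0.30 in the WT line, and over all tested genes it was 0.11 against 0.33. The largest was that of EEF1A2, 0.36 ± 0.18. The spread between arrays was also smaller in the mutant line: the median SD of the members was 0.11 untreated and 0.13 treated, against 0.20 and 0.22 in the WT line. Groups did not overlap for 5 higher and 1 lower members (7.70% and 4.83% of all tested genes).

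Whether the inductions differed was tested by the interaction term. No member was called by limma, against 0.145% of all tested genes, while 10 of 50 had an unadjusted p under 0.05, against 15.2% of all tested genes. EIF4EBP1 came closest, with a difference of 0.97 ± 0.19 (adjusted p = 0.0569). It was followed by EIF1B (1.00 ± 0.24, 0.0895) and EEF1A2 (0.93 ± 0.25, 0.124), and on the lower side by EIF3J (-0.73 ± 0.21, 0.151) and EEF1AKMT2 (-1.13 ± 0.34, 0.163). EIF4EBP1 passed in some alternatives, with an adjusted p of 0.039 under the stricter filter, 0.0482 with an offset of 16, 0.00371 with array weights and 0.00249 without WT tetracycline replicate 1. Array weights, which let limma count noisy arrays less, called 4 members higher and 5 lower (9.11% of all tested genes), and the fit without WT tetracycline replicate 1 also called 4 and 5 (9.80% of all tested genes). In the fit as designed, without these changes, no member's WT change on its brightest probe set was shown to differ from its mutant change. Of the 72 other tested probe sets 1 was called, a dimmer one of EIF1, with a difference of 1.63.

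The comparison of the lines without tetracycline asked how they differ before induction. In WT cells 7 members were higher and 3 lower than in mutant cells, of 50 tested, while 5.84% of all tested genes were higher and 6.82% lower. The actin ratio differs between the lines as given above, and its part was not tested. The scaling also matters here. When each array was centred on its own median, the median difference of all tested genes moved from -0.02 to 0.19, and 22 members were called higher and 1 lower (15.2% and 3.86% of all tested genes). With quantile normalization 2 were called higher and 4 lower (5.68% and 5.23%). Directions that follow are on the MAS5 scale.

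The genes higher in the WT line were EIF1AD, a nuclear protein with an eIF1A-like domain (1.11 ± 0.23, adjusted p = 0.00748), EIF2B2 (0.57 ± 0.13, 0.0118), EIF2S1 (0.56 ± 0.17, 0.0442), EIF2S2 (0.53 ± 0.11, 0.00721), and the eIF3 subunits EIF3A (0.49 ± 0.11, 0.0101), EIF3M (0.40 ± 0.11, 0.0305) and EIF3D (0.38 ± 0.11, 0.0316). Of these, EIF2S1, EIF2S2, EIF3A, EIF3D and EIF3M lost their call with quantile normalization (adjusted p = 0.0604 to 0.154). On the second brightest probe set the difference was 0.26 for EIF1AD (adjusted p = 0.476), 0.04 for EIF2S1 (0.895), 0.13 for EIF2S2 (0.852), 0.11 for EIF3A (0.668) and 0.25 for EIF3M (0.215), so none of these 5 passed there. The brightest probe set of EIF1AD gave 10.54, 9.65 and 9.66 in WT untreated and 8.74, 8.96 and 8.82 in mutant untreated, which did not overlap. All 12 eIF3 subunits had a difference above 0, with a median of 0.31 against -0.02 over all tested genes. With quantile normalization 10 of 12 were above 0, the median was 0.16 and 0 were called, and with median centring 12 of 12 were above 0 and 9 were called. Of the 9 genes of eIF2, eIF2B and EIF2A 8 were above 0, with a median of 0.44 (8 and 0.39 with quantile normalization, 9 and 0.64 with median centring). Of all tested genes 48.5% were above 0, 54.6% with quantile normalization and 66.1% with median centring.

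EEF1A2 was lower in the WT line by 1.43 ± 0.18 on the log2 scale, or 2.69-fold (adjusted p = 0.000507), and this passed in all 23 alternatives that could be run. EIF5A was lower by 1.28 ± 0.37 (adjusted p = 0.0363), with WT untreated arrays at 11.50, 10.84 and 9.69 and mutant untreated arrays at 11.96, 11.73 and 12.17. The WT arrays were widely spread and all below the mutant ones. The other probe sets of EIF5A gave -0.56 (adjusted p = 0.401) and 0.005 (0.996), and the mean of all gave -0.61 (0.289). EIF4G1 was lower by 0.96 ± 0.26 (adjusted p = 0.0277), with WT untreated arrays at 11.55, 10.88 and 11.99 and mutant untreated arrays at 12.63, 12.38 and 12.28. With median centring neither EIF5A (-1.07, adjusted p = 0.0664) nor EIF4G1 (-0.75, 0.0657) passed. Without a variance trend EIF2S1, EIF3D, EIF3M, EIF4G1 and EIF5A did not pass (0.0744 to 0.11). EIF5A and EIF4G1 each lost the call without any of the 3 mutant untreated arrays (adjusted p = 0.101, 0.0755 and 0.116 for EIF5A and 0.111, 0.0777 and 0.0561 for EIF4G1). They also lost it without WT untreated replicate 2 (0.0605 and 0.103), EIF5A without WT untreated replicate 3 (0.122) or mutant tetracycline replicate 2 (0.0516), and EIF4G1 without WT untreated replicate 1 (0.0572). EIF3D (0.0526 to 0.106), EIF3M (0.0595 to 0.142) and EIF2S1 (0.0519 to 0.169) also lost theirs without any of the 3 mutant untreated arrays and without 2 to 5 others, and EIF2B2 without mutant untreated replicate 2 (0.0596).

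With tetracycline, 12 members were higher and 7 lower in the WT line, 38.0% of those tested, while 13.3% of all tested genes were higher and 14.9% lower. With median centring the split was 22 and 3 (24.5% and 8.29% of all tested genes), the median of all tested genes moving from -0.03 to 0.20. With quantile normalization it was 9 and 8 (14.3% and 12.3%). EIF1B (1.13 ± 0.17, adjusted p = 0.00042), EIF4EBP1 (0.84 ± 0.13, 0.000615) and EIF1 (0.63 ± 0.11, 0.000941) were higher in treated WT cells than in treated mutant cells. Without tetracycline the same differences were 0.13, -0.13 and 0.14, and none passed. EIF2B2 (0.71), EIF2S1 (0.64), EIF2S2 (0.65), EIF3A (0.65), EIF3D (0.61) and EIF1AD (0.65) were higher with and without tetracycline, and EIF3F (0.59), EIF4H (0.55) and EEF1D (0.38) passed with it.

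On the lower side with tetracycline were EIF5A (-1.45 ± 0.37, adjusted p = 0.0108), EIF4G1 (-1.05 ± 0.26, 0.00928), EIF5 (-0.86 ± 0.22, 0.0104), EEF2K (-0.76 ± 0.22, 0.0207), EIF1AX (-0.60 ± 0.15, 0.00919), EEF1A2 (-0.50 ± 0.18, 0.0483) and EIF2S3 (-0.45 ± 0.16, 0.0489). EEF2K gave 9.51, 8.97 and 8.68 in treated WT cells and 9.95, 9.88 and 9.62 in treated mutant cells, which did not overlap. Median centring ended 4 of these 7 calls: EEF1A2 was then -0.28 (adjusted p = 0.243), EIF2S3 -0.22 (0.342), EIF1AX -0.38 (0.0901) and EEF2K -0.54 (0.0735). On the second brightest probe set EIF5A was -0.57 (adjusted p = 0.312), EIF2S3 -0.25 (0.127) and EIF5 -0.56 (0.0995), and of the higher genes EIF1AD was 0.17 (0.584) and EIF3A 0.36 (0.0692). The dimmest tested probe set of EIF3A was instead called lower, with means of 9.27 in treated WT and 9.81 in treated mutant cells. So was the dimmer probe set of EIF3F, at -1.99 (adjusted p = 0.0474). With the mean of all probe sets EIF1B was 0.37 (adjusted p = 0.264) and EIF3A 0.16 (0.341). Quantile normalization ended the calls of EEF1D, EIF2S1 and EIF4H (0.0692 to 0.261). The EEF2K call was lost without any of 4 arrays (adjusted p = 0.0641 to 0.0898), that of EEF1A2 without any of 8 (0.0612 to 0.136), that of EIF2S3 without any of 7 (0.0555 to 0.229) and that of EIF5A without WT tetracycline replicate 3 (0.053). Of the higher genes, EIF1AD (without any of 9 arrays, 0.0518 to 0.138), EIF4H (6 arrays, 0.0533 to 0.166), EEF1D (5 arrays, 0.0626 to 0.119) and EIF2S1 (2 arrays, 0.0524 and 0.0527) lost theirs. The other 11 of the 19 kept their call without each array in turn, and EIF1, EIF2B2, EIF3D and EIF4EBP1, 4 of 19, kept it in every alternative that could be run.

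**Figure D4:**
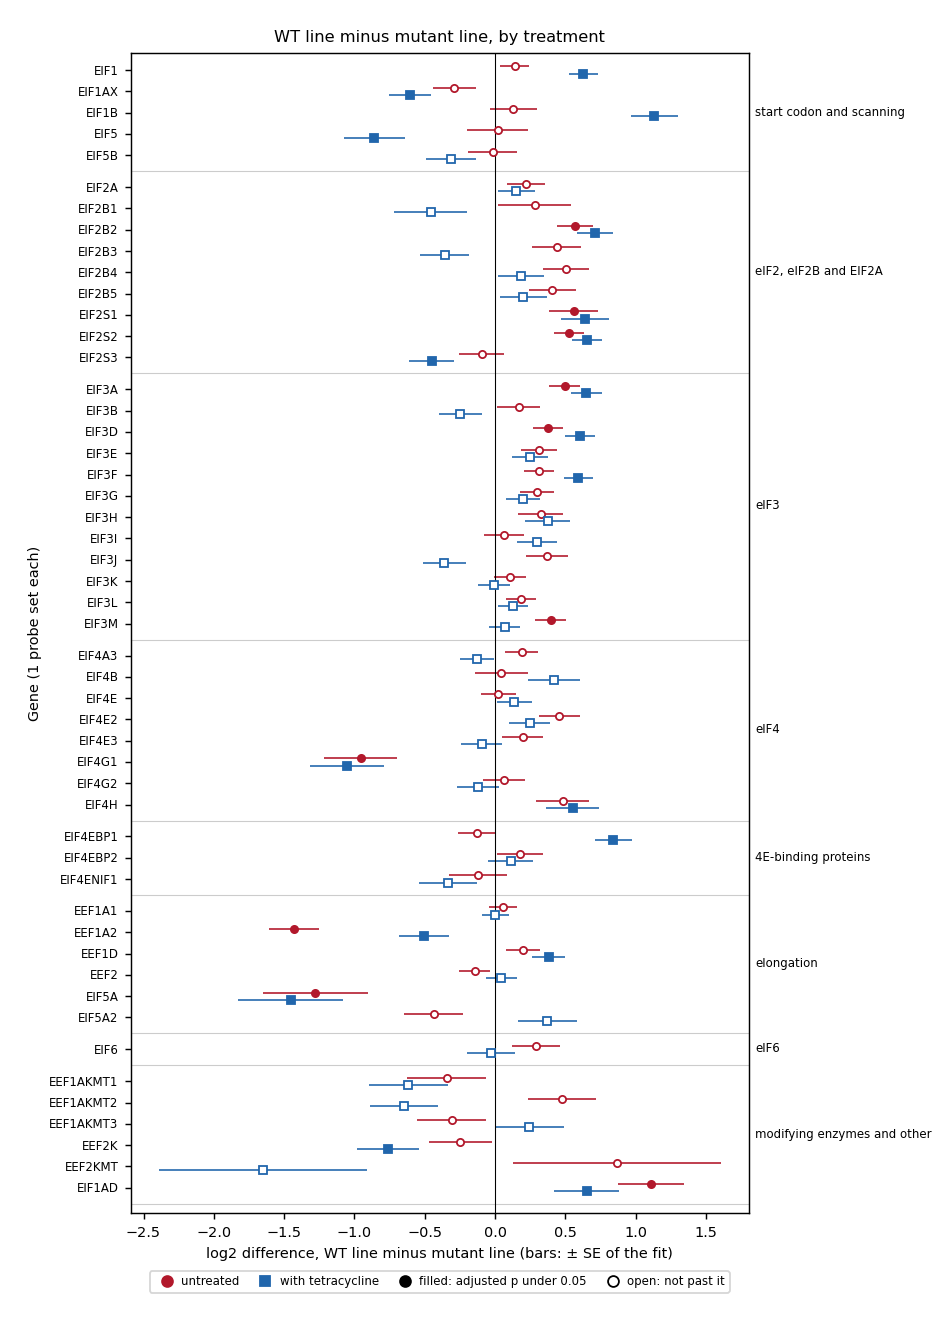
The horizontal axis is the log2 difference of the MAS5 signal, WT line minus mutant line, with bars of ± 1 SE of limma's fit, and each line of the vertical axis is one of the 50 tested genes, grouped by role. Circles are untreated cells and squares cells with tetracycline, and filled marks passed an adjusted p under 0.05: 10 circles and 19 squares are filled, and the 12 circles of the eIF3 subunits all lie above 0.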

How the data were processed

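Total RNA was measured on Affymetrix arrays, 12 arrays in 4 groups of 3. The deposited values are the MAS5 signal intensity of each probe set, per the submitters' processing notes. The version of MAS5 is not given in the sources used here, and all arrays shared a trimmed mean of 500.1. Signals under 1 (0.337% of values) were set to 1 and log2 was taken. Of 54675 probe sets, 29553 were tested: no control, and highest group mean above the median of the table (6.39). By the platform annotation 41091 probe sets carried 1 symbol, 1801 several and 11721 none. limma 3.58.1 (R 4.3.3) fitted a mean per group with a variance trend, and the 4 groups shared 1 estimate of spread per probe set. Benjamini-Hochberg adjustment ran over all tested probe sets in each comparison. An adjusted p under 0.05 was a call, and the fit was tested on simulated data. Values are log2 change ± SE. The members, lists, tests and alternatives were chosen with earlier results of these data known. Named are members called in any comparison, the eIF2 and eIF2B subunits, EIF4E, EIF4G1, EIF5A, EIF6, EEF1A1, EEF2, EIF4EBP1, EIF4EBP2, EEF2K and members with opposite probe sets; other members named beside their role were added after their values were seen. Promoter windows are RefSeq's for GRCh38.p14, matched by gene ID. Alternatives changed the normalization, filter, offset, variance model, probe set choice and arrays in the fit. The mean of all probe sets of a gene also took in probe sets that did not pass the signal filter.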

Additional observations from a re-analysis of the deposited data

Results flagged for a closer look

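EIF2B3, the gamma subunit of the eIF2 exchange factor, was flagged because its treated arrays lay on opposite sides of the untreated mean in the WT and mutant lines. The treated WT arrays lay 0.29 to 1.11 below the WT untreated mean on the log2 scale, and the treated mutant arrays lay 0.07 to 0.21 above theirs. The mutant groups overlapped, with 10.841 to 11.125 untreated and 11.048 to 11.191 treated. The difference of the inductions was -0.80 and did not pass (adjusted p = 0.168, limma). A dimmer probe set of EIF1, the start codon factor, was flagged by the interaction test: the inductions differed by 1.63 ± 0.27 (adjusted p = 0.041, limma). It gave 8.63, 8.70 and 8.52 in WT untreated, 9.99, 9.99 and 10.54 in WT with tetracycline, 8.24, 8.30 and 8.11 in mutant untreated, and 7.99, 8.14 and 8.32 in mutant with tetracycline. All 3 treated WT arrays lay above the other 9.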

How the results depend on the processing

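Without single arrays the count of members called in WT cells with against without tetracycline ran from 4 to 9 higher and from 2 to 12 lower, in the difference of the inductions from 0 to 4 and from 0 to 5, between the untreated lines from 3 to 11 and from 1 to 3, and between the treated lines from 8 to 14 and from 4 to 13. The main counts were 8 and 9, 0 and 0, 7 and 3, and 12 and 7. With the replicate 3 arrays, lowest in the poly-A controls, left out of all groups, the WT induction gave 3 and 0, the untreated lines 3 and 1, and the treated lines 1 lower. With only the groups compared in the fit the WT induction gave 4 and 3. Without a variance trend it gave 5 and 3 and the untreated lines 4 and 1, and without a signal filter there were 5 lower in the WT induction and 4 higher between the untreated lines. Median centring gave 22 and 1 between the untreated lines and 22 and 3 between the treated lines, and quantile normalization 2 higher between the untreated lines. The second brightest probe set, which 32 members have, gave 2 higher in the WT induction, 1 and 1 between the untreated lines and 3 higher between the treated lines, and the mean of all probe sets gave 5, 4 and 6 higher. For the difference of the inductions 1 member was higher with the offset, the stricter filter or the replicate block, and 4 higher and 5 lower with array weights, which also gave 12 lower between the treated lines. The mutant induction had 0 called members under all alternatives. For most of these fits the share of all tested genes called is not given. The counts therefore describe how the members' calls moved and are not set against all genes.

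Among called members the sign turned only with the choice of probe set. Of all 50 members 37 (74.0%) were above 0 between the untreated lines, 29 (58.0%) with quantile normalization and 42 (84.0%) with median centring. Of all tested genes 48.5%, 54.6% and 66.1% were. Between the treated lines 29 (58.0%), 26 (52.0%) and 34 (68.0%) members were above 0, against 48.4%, 52.9% and 63.5% of all tested genes. With the second brightest probe set EIF2S2 was -1.16 in the WT induction and -0.85 between the treated lines, EIF3F -2.65 and -1.99, and EEF1D -0.019 between the treated lines. With the mean of all probe sets EIF2S2 was -0.10 and EIF3F -0.49 between the treated lines, EIF3F -0.999 in the WT induction and EIF3M -0.32 between the untreated lines. The cause was not tested.

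The replicate numbers were not shown to pair the samples. Deviations of same-numbered arrays correlated at 0.04 to 0.25 in the WT line and 0.03 to 0.21 in the mutant line, and 4 and 5 of 6 arrays correlated best with their own number. With the replicate block 9 members rose and 10 fell in the WT induction, 9 and 3 were called between the untreated lines and 13 and 7 between the treated lines. The share of all tested genes called with the block is not given. EIF4EBP1 passed as different between the inductions (adjusted p = 0.0403), and EIF2S2 (0.0257) and EIF5 (0.0418) passed in the WT induction. Signal over background limits the dim members, above all EEF2KMT.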
